A study of Homo sapiens with 6 samples.

Results

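Chromosomes 4, 13 and 18 are among the human chromosomes with the fewest genes per base. They held 3.98, 2.80 and 3.41 protein-coding genes per Mb, ranks 3, 1 and 2 from the lowest among the 23 chromosomes scored. The bins described here are all 100 Kb bins of these chromosomes that have a compartment score in all 6 libraries of the study, which were 3576 of 3845 bins: 1873 of chromosome 4, 955 of chromosome 13 and 748 of chromosome 18. The whole study has 27898 such bins, of which 24322 lie on the other 20 chromosomes.

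The data are tethered chromatin conformation capture (TCC), a Hi-C protocol with ligation of surface-bound DNA, from T47D cells, an estrogen receptor-positive human breast cancer line. Parental T47D cells were starved of hormone for 72 h (T0) and then treated with 100 nM beta-estradiol (E2) for 1 h (T1), 4 h (T4), 16 h (T16) or 24 h (T24). The sixth library is the tamoxifen-resistant derivative of the line (TamR), which the labels give as untreated and which the study's methods keep in medium with tamoxifen and charcoal-stripped serum. Starvation of the parental cells also used charcoal-stripped serum, at a lower percentage. Resistance, tamoxifen and the remaining differences in medium cannot be told apart. With 1 library per condition there is no replicate to check a difference against and no test was made, and the spread among the 5 parental libraries is the only yardstick. The line is 1 source, and the scores themselves cannot check the cell type.

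Chromatin of one kind tends to contact chromatin of the same kind, and the first eigenvector of a contact map splits the genome accordingly. Compartment A is open, early replicating and rich in transcribed genes, while compartment B is compact, late replicating and often held at the nuclear lamina. On chromosomes with few genes most of the sequence is B, and A appears as islands between long B stretches. In the deposited files a positive score is A and a negative score is B, and a score of 0 marks a bin without a value. Scores are scaled within each library, are given here times 1000, and ran from -10.1 to 16.4 on these chromosomes. The files hold no contact counts, and the depth of each library is therefore unknown.

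The longest runs that changed in TamR held genes with very unlike promoters. For the longest run of bins that was A in all 5 parental libraries and B in TamR, and for the longest run with the opposite change, the gene whose start bin differed most is shown, for both directions on chromosomes 4 and 13 and for the first direction on chromosome 18, as the 150 bases before its outermost annotated start (GRCh37, the sequence of hg19; 5′ to 3′ on the gene's strand, with CpG dinucleotides in capitals). The set is shown so that the CpG content of the starts that moved in each direction can be read directly.
SLC7A11, A in parental cells and B in TamR, chr4:139163504-139163653, minus strand: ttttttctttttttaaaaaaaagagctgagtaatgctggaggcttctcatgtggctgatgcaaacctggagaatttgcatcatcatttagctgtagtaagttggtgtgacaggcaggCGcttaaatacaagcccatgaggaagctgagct
IRS2, A in parental cells and B in TamR, chr13:110438931-110439080, minus strand: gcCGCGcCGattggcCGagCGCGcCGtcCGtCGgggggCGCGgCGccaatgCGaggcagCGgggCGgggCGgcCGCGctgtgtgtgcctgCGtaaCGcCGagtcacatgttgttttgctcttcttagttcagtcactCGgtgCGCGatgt
PIEZO2, A in parental cells and B in TamR, chr18:11149569-11149718, minus strand: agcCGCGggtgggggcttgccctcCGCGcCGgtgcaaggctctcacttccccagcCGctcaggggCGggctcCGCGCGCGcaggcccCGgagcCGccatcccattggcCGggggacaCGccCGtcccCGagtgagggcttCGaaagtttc
TRIML2, B in parental cells and A in TamR, chr4:189030758-189030907, minus strand: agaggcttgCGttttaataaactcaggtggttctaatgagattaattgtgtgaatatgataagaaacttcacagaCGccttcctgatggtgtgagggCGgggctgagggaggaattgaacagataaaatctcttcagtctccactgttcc
NBEA, B in parental cells and A in TamR, chr13:35516257-35516406, plus strand: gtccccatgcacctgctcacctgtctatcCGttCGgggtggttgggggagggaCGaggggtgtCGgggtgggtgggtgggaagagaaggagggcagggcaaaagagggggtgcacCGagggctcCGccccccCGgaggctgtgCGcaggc
The 5 windows held 1, 24, 18, 3 and 8 CpG in the order printed. Both the densest (IRS2) and the sparsest (SLC7A11) belong to genes that were A in parental cells and B in TamR. Over all 1323 scored protein-coding genes of the 3 chromosomes the median was 11 CpG per window, with 13 for genes in A in all 6 libraries, 8 for genes in B in all 6, 10 for the genes that were A in parental cells and B in TamR, and 8 for those with the opposite change. None of the 5 windows held GGTCA or TGACC, the arms of an estrogen response element on either strand, which 209 of the 1323 windows (15.8%) did.

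The 3 chromosomes were mostly B in every library. At T0, 1144 of 3576 bins (32.0%, 95% Wilson interval 30.5 to 33.5) were in A, against 48.3% of the bins of the other 20 chromosomes and 72.2% of those of the gene-rich chromosomes 16, 17, 19 and 22. The share was 31.3% at T1, 32.7% at T4, 32.0% at T16, 28.8% at T24 (27.3 to 30.3) and 32.9% in TamR (31.4 to 34.5). These intervals cover counting error over bins only and are too narrow, since neighbouring bins are not independent. The lowest value was that of T24, where the other 20 chromosomes together also had their lowest share (46.3%) and the gene-rich chromosomes their highest parental one (74.6%).

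**Figure D1:**
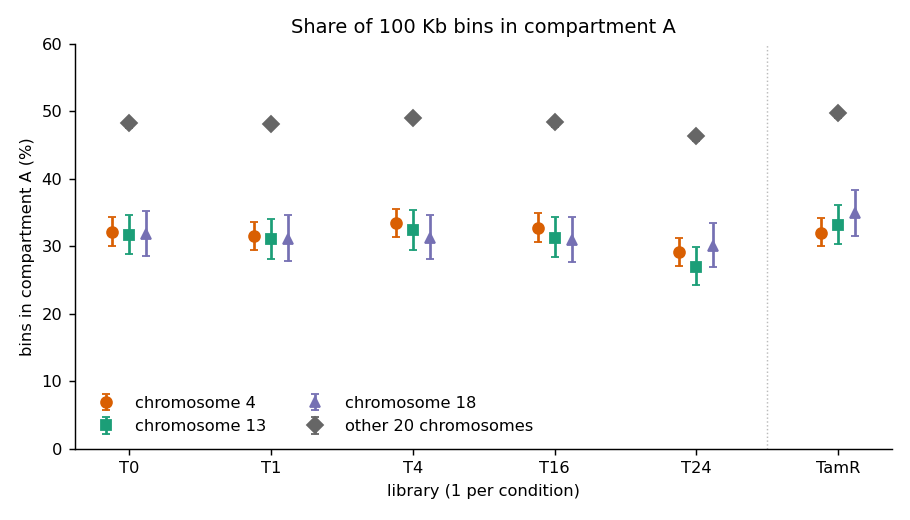
Percent of 100 Kb bins in compartment A (vertical axis, from 0) in each of the 6 libraries (horizontal axis), for chromosomes 4, 13 and 18 and for the other 20 chromosomes together; bars are 95% Wilson intervals over bins. The 3 chromosomes lie between 27.0% and 34.9% in all 6 libraries, and the other 20 between 46.3% and 49.7%.

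The 3 chromosomes had nearly the same share of A at T0 (32.2%, 31.7% and 31.8%) although their sequence differed. GC content was 38.2% on chromosome 4 and 38.5% on chromosome 13, the lowest and second lowest of the 23 chromosomes, and 39.8% on chromosome 18, the seventh lowest. Chromosome 18 had the deepest B: its bins outside islands had a median score of -6.82 at T0, compared with -4.35 on chromosome 4 and -4.60 on chromosome 13. In TamR this median was -5.34 on chromosome 18, -4.68 on chromosome 4 and -4.86 on chromosome 13, so the 3 chromosomes lay closer together there.

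An A island was taken as a run of adjacent bins that were in A in at least 3 of the 5 parental libraries. There were 90 islands with 1136 bins (31.8%): 51 on chromosome 4, 22 on chromosome 13 and 17 on chromosome 18. The median island was 600 Kb long and the longest 6400 Kb, and 17 islands were single bins. The 601 islands of the other 20 chromosomes had a median of 700 Kb. The means differed more, at 1262 Kb here and 1945 Kb there. All scored bins, inside and outside islands, divided by the number of islands gave like values (39.7 and 40.5).

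Genes were denser in islands. Of the 1323 scored protein-coding genes, 771 (58.3%) started in an island, compared with 78.9% on the other 20 chromosomes, and island bins had 6.80 starts per Mb against 2.26 in the other bins. The islands remained gene-poor beside those of the whole genome, which had 11.9 starts per Mb, and 52.8% of their bins held no start at all, compared with 82.5% of the other bins. GC was 41.8% in island bins and 37.2% in the rest, and CpG per 100 bases 1.12 and 0.685. Across the 3576 bins the T0 score had a Pearson correlation of 0.59 with GC and 0.36 with the number of starts, given as a description since bins of 1 library are not independent.

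The longest island of all was chr13:22900001-29300000, with 64 bins and 38 protein-coding starts, among them TNFRSF19, a member of the tumour necrosis factor receptor family, and MIPEP, a mitochondrial peptidase gene. The cyclin-dependent kinase gene CDK8, the gut and pancreas transcription factors CDX2 and PDX1, and the receptor tyrosine kinase genes FLT1 and FLT3 also lay in it. Its mean score was 4.14 at T0, 3.84 at T1, 4.04 at T4, 4.11 at T16, 3.15 at T24 and 2.09 in TamR, where 50 of the 64 bins were in A. The T24 and TamR means were the lowest.

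On chromosome 4 the longest island was chr4:138700001-144500000 (58 bins, 23 starts), followed by chr4:37600001-42000000 (44 bins, 33 starts) and chr4:150900001-154500000 (36 bins, 17 starts). The first begins with SLC7A11, the cystine and glutamate exchanger, and holds INPP4B, a phosphoinositide phosphatase. Its means were 3.17, 2.94, 3.09, 2.86 and 2.54 in T0 to T24 and 0.33 in TamR, below all parental libraries, with 33 of 58 bins in A. The second, with the Toll-like receptor gene TLR10 and the transcription factor gene KLF3, had 44 bins in A at T0 and 44 in TamR, with a TamR mean of 3.98 inside the parental range of 3.19 to 4.36. The third, which holds FBXW7, the substrate receptor of a ubiquitin ligase, was at 2.34 in TamR against 2.51 to 3.86 in parental cells.

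Chromosome 18 behaved otherwise in its longest islands. The island chr18:43300001-48600000 (53 bins, 38 starts), with the TGF-beta signal transducers SMAD2 and SMAD7, had a mean of 3.53 to 4.01 in parental cells and 4.68 in TamR. The island chr18:18500001-22000000 (35 bins, 19 starts), with ROCK1, a kinase of the actin cytoskeleton, and GATA6, an endodermal transcription factor, had 4.23 to 4.98 in parental cells and 5.57 in TamR. The island between them in length, chr18:9000001-14200000 (52 bins), went the other way, from 3.41 to 3.73 in parental cells to 1.85 in TamR.

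Isolated islands, 15 in number, were at least 3 bins long with at least 10 parental B bins on each side. Chromosome 4 had 9 of them, chromosome 18 had 5 and chromosome 13 had 1. That of chromosome 13, chr13:73400001-74000000, holds a single protein-coding start, that of KLF5, an epithelial zinc finger transcription factor. Its 6 bins had mean scores of 0.89 at T0, 0.50 at T1, 0.95 at T4, 0.63 at T16, 0.13 at T24 and 0.56 in TamR, all close to the border. Other isolated islands were far from it, such as chr4:184000001-187100000 (31 bins, with the chromatin reader gene ING2) at 4.10 at T0, 3.14 at T24 and 2.61 in TamR. The island chr18:71900001-73000000, with CYB5A and the carnosinase genes CNDP1 and CNDP2, was at 1.36 to 1.89 in parental cells and -1.51 in TamR, with 2 of 11 bins left in A.

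The E2 course left most bins where they were. Of the 3576 bins, 971 (27.2%) were A in all 5 parental libraries and 2337 (65.4%) B in all 5. Bins in the other compartment than at T0 numbered 116 at T1 (3.24%, against 3.16% of all scored bins of the genome), 110 at T4 (3.08%, genome 3.05%), 121 at T16 (3.38%, genome 3.80%) and 195 at T24 (5.45%, genome 5.17%). The shares were near those of the genome at all 4 times.

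Few bins changed at all 4 E2 times. From A to B these were 22 (0.615%, genome 0.785%) and from B to A 17 (0.475%, genome 0.624%), in runs of at most 2 bins. A further 229 bins (6.40%, genome 5.70%) moved at some times only. On chromosome 4 these irregular bins made up 7.53%, the highest share of the 23 chromosomes, with 5.97% on chromosome 13 and 4.14% on chromosome 18. In 119 of the 229 only 1 E2 time stood out from the rest of the parental series, and in 83 of them it was T24.

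Many of the bins that changed under E2 lay next to a T0 border. Bins with a neighbour of the other compartment at T0 made up 10.1% of all bins, 80.2% of those changed at T1, 88 of the 110 changed at T4, 77.7% at T16 and 64.1% at T24. The median absolute T0 score of the changed bins was 0.400, 0.367, 0.443 and 0.632, compared with 4.11 over all bins. A change of sign is easiest where a score is near 0. T0 also sets both the border and the change, so a bin that stands out at T0 alone counts as both. These values therefore describe the bins and are no test. When bins below the tenth percentile of absolute score in any library were left out, no bin of the 2639 kept changed at any E2 time, a filter that by its construction removes bins near the border.

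At T24 the changes were mostly losses of A. From T0 to T24, 155 bins (4.33%) went from A to B and 40 (1.12%) from B to A. On chromosome 13 the counts were 45 (4.71%) and 0. The other 20 chromosomes had 868 (3.57%) and 380 (1.56%), also with more losses than gains. At T4 the balance was opposite, with 42 (1.17%) and 68 (1.9%), against 1.16% and 1.89% on the other 20. The median score of island bins was 2.96, 2.54, 2.89, 2.68 and 2.28 in T0 to T24. Of 90 islands, 76 had a lower mean at T24 than at T0. This was not particular to T24, since 76 were also lower than T0 at T1, 56 at T4 and 67 at T16. The lowest of the 5 parental means was that of T24 in 63 islands. Over the genome 18 of the 23 chromosomes had less A at T24 than at T0 and 5 had more. With the border at each library's median score over the genome instead of at 0, the share of A on the 3 chromosomes was 36.5% at T0 and 36.3% at T24, so the lower share at T24 rests on the border at 0.

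Single genes show the size of these steps. CENPE, a kinesin that links chromosomes to spindle microtubules, started in a bin at -0.99 at T0 and at 0.60, 0.30, 0.89 and 0.31 at T1 to T24, which made it one of the 17 bins that turned A at all E2 times; in TamR it was at -2.51. PPID and FNIP2 started together in a bin at 0.77 at T0 and between -0.94 and -0.42 under E2, with 1.82 in TamR. All these values lie close to 0 beside the range of the scores.

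TamR differed from T0 in far more bins than any E2 library. In 518 bins (14.5%, 13.4 to 15.7, against 13.9% of the genome) the compartment was not that of T0, with 242 bins from A to B (6.77%, genome 6.27%) and 276 from B to A (7.72%, genome 7.67%). As shares of all bins these were close to the genome. As a share of the A bins of T0, however, the loss was 21.2% (18.9 to 23.6), against 13.6% in the genome, 12.8% on the other 20 chromosomes and 1.78% on chromosomes 16, 17, 19 and 22. The share lost was 23.7% on chromosome 4, second highest of the 23 chromosomes. It was 17.8% on chromosome 13 and 18.9% on chromosome 18, ranks 17 and 18 from the lowest. Such losses were not particular to these chromosomes, with 31.0% on chromosome 5, 22.6% on X, 22.4% on chromosome 8 and 20.2% on chromosome 2. With weak bins left out the loss was 5.37% here and 3.46% on the other 20 chromosomes. Of the B bins of T0, 11.3% (10.1 to 12.7) were A in TamR, against 14.3% in the genome and 25.6% on the gene-rich chromosomes.

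The TamR score lay outside the range of the 5 parental scores in 2799 bins (78.3%, genome 78.6%), below it in 1457 and above it in 1342. On chromosome 4 more bins were below (816) than above (641), and on chromosome 18 more were above (304) than below (253). The parental libraries correlated with each other at 0.980 to 0.994 over the 3576 bins and with TamR at 0.797 to 0.806. The T0 to TamR correlation was 0.784 on chromosome 4, 0.799 on chromosome 13 and 0.828 on chromosome 18, ranks 2, 3 and 5 from the lowest among the 23 chromosomes, and 0.899 over the other 20 together. The differences had little relation to base composition or restriction sites: TamR minus T0 correlated with GC at 0.06 and with HindIII sites at 0.04.

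Of the bins changed in TamR, 27.8% had a neighbour of the other compartment at T0. Their median absolute T0 score was 1.78, with 1.18 for those that went from A to B and 2.81 for those that went from B to A, all above the values of the bins changed under E2. Bins that were A in all 5 parental libraries and B in TamR numbered 144 (4.03%, genome 3.94%), and 71 of them lay in 9 runs of 5 bins or more. The opposite change was seen in 238 bins (6.66%, genome 6.13%), of which 148 lay in 13 such runs. The longest runs were 1200 Kb and 2500 Kb.

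Of the 90 islands, 40 (44.4%, interval 34.6 to 54.7, against 47.2% of the genome's islands) stayed wholly in A in TamR, 29 were partly in A and 21 (23.3%, 15.8 to 33.1, genome 19.7%) had no bin in A. Both shares were near those of the genome. The count without A depends on how islands are drawn, with 34 when they are taken from T0 alone, 10 when A in all 5 parental libraries is required and 7 for islands of at least 3 bins. T24 also had 21 islands without an A bin. Its island means went no lower than -0.80, whereas in TamR 20 island means were below -1 and the lowest was -6.59. In the parental libraries only 1 mean, at T0, was below -1. Islands were drawn from the parental libraries, T24 among them, which keeps parental means near or above 0 but not those of TamR. The contrast of TamR with the parental libraries is therefore no test.

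The islands without A in TamR were short and weak. Their median length was 200 Kb, the longest was 800 Kb, and the median of their mean T0 scores was 0.66. Those that kept A throughout had medians of 400 Kb and 1.58, and the partly kept ones 2400 Kb and 2.99. GC was 38.4% in the bins of islands without A in TamR and 42.6% in those that kept it, with 3.45 and 8.23 protein-coding starts per Mb. The classes themselves favour such contrasts. In a short island few bins need to change, a single-bin island cannot be partly in A, and low scores lie near the border. These values therefore describe the classes and are no test. TamR also had 26 runs in A that touch no parental island, with 55 bins in all, of which 14 were single bins and the longest was the 1000 Kb run at SETBP1. The mean in TamR was above all 5 parental means in 30 islands, below all in 46 and within their range in 14. The choice of islands by their parental scores favours lower means in TamR, so this balance is no test either.

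**Figure D2:**
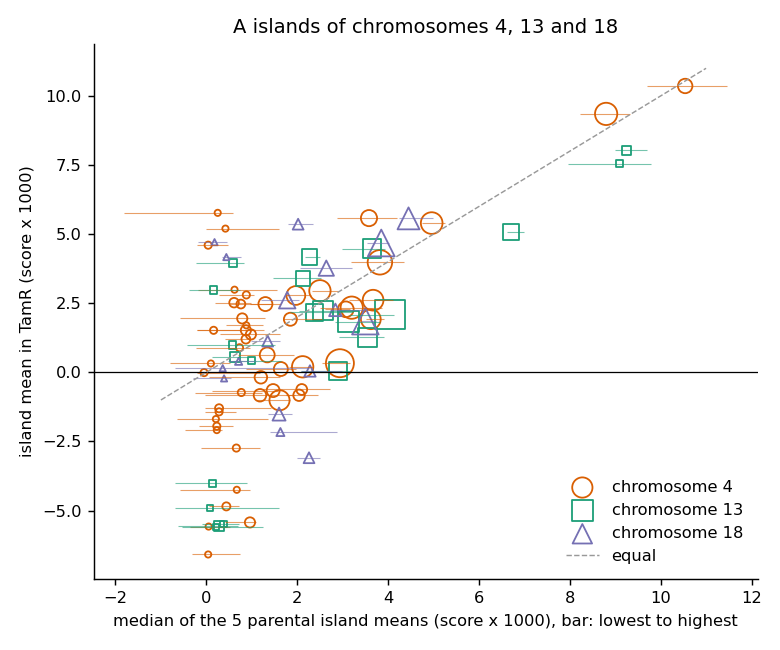
Each of the 90 A islands by the median of its mean score in the 5 parental libraries (horizontal axis, score times 1000, with a bar from the lowest to the highest parental mean) and its mean score in TamR (vertical axis, score times 1000); larger symbols are longer islands, and the dashed line marks equal values. Islands with a parental median near 0 spread from -6.59 to over 5 in TamR, whereas the long islands above 3 stayed at or above 0.

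In TamR a single A stretch of 73 bins, chr4:72000001-79300000, ran through the albumin, chemokine and growth factor genes of chromosome 4. Of these bins 48 were B in all 5 parental libraries, 17 were A in all 5 and 8 were mixed, and of the 54 protein-coding starts 29 lay in the first kind and 21 in the second. In the parental libraries the start of ALB lay in a B stretch of 12 or 13 bins in T0 to T16 and of 36 bins at T24. Narrow peaks near the border separated the parental B stretches. The runs that were B in all 5 parental libraries and A in TamR here were chr4:72000001-74000000 (20 bins) and chr4:74100001-75300000 (12 bins). The first had mean scores of -5.55, -5.75, -5.60, -5.34 and -5.81 in T0 to T24 and 2.39 in TamR. The second had -4.22, -4.33, -4.39, -4.51 and -4.91 and then 3.30. The means of the 5 parental libraries differed by 0.47 and 0.70 at most. Both runs were chosen as B in all 5 and A in TamR, so a higher TamR mean follows from that choice.

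Several gene families of this stretch encode secreted proteins, and others of its genes, such as NPFFR2, a neuropeptide receptor, and COX18, a mitochondrial insertase, do not. ALB (serum albumin) and AFP (alpha-fetoprotein) started in 1 bin with scores of -5.52 at T0, -4.47 at T1, -4.47 at T4, -4.66 at T16, -5.34 at T24 and 2.93 in TamR. GC, the vitamin D-binding protein gene, was at -6.53 at T0 and 0.45 in TamR, near the border. CXCL8, the neutrophil chemokine interleukin-8, was at -7.10, -6.69, -6.35, -6.86, -6.98 and 3.57, so that it was among the deepest B bins of the stretch before and in A in TamR. Its relatives CXCL1 and CXCL6 shared a bin at -6.32 at T0 and 2.72 in TamR, CXCL5 was at -6.57 and 2.38, and CXCL2 and CXCL3 shared a bin at -5.48 and 3.74.

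Ligands of the epidermal growth factor receptor lie next to the chemokines. EPGN (epigen) was at -2.78 at T0 and 5.11 in TamR, EREG (epiregulin) at -1.05 and 3.77, and BTC (betacellulin) at -3.37 and 3.62, all in B in the 5 parental libraries. AREG, which encodes amphiregulin, a growth factor known as an estrogen target in breast cells, sat at the border in parental cells, at -0.36, 0.32, 0.52, 0.17 and -0.49 in T0 to T24. In TamR it was at 5.49. CXCL9, CXCL10 and CXCL11, chemokines of the interferon response that share 1 bin farther along, were in A in all 6 libraries, with 4.46 at T0, 2.98 at T24 and 5.99 in TamR. Gene expression was not measured in these files.

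**Figure D3:**
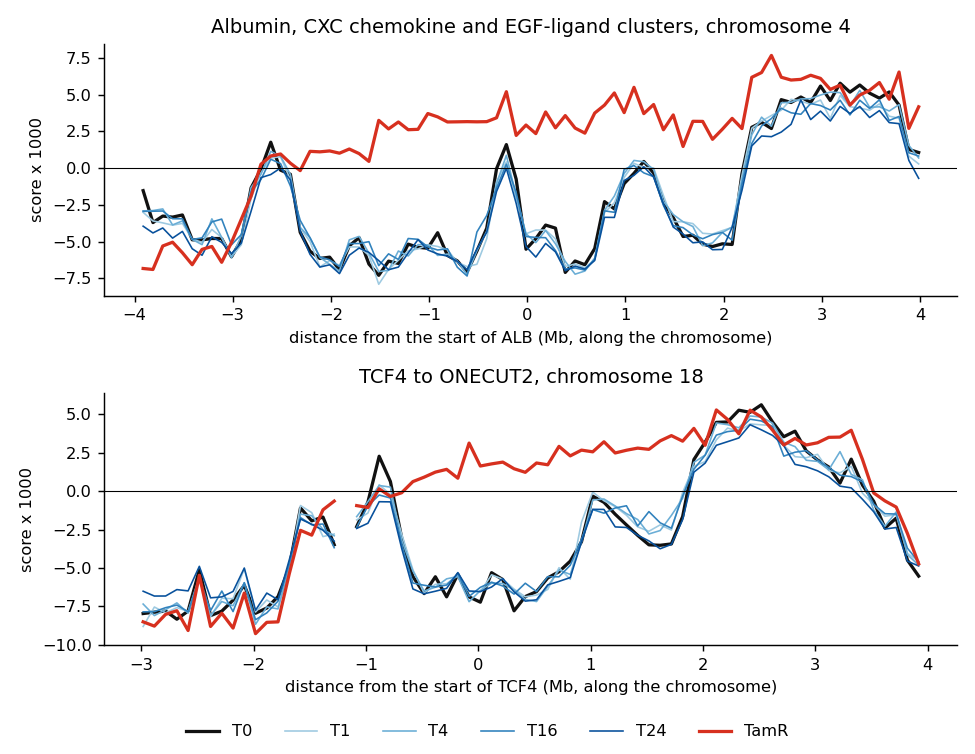
Score times 1000 (vertical axis, 0 is the border) of each 100 Kb bin in the 6 libraries (lines; T0 black, E2 times in blues, TamR red) by distance in Mb from the start of ALB on chromosome 4 (top) and from the start of TCF4 on chromosome 18 (bottom). In both panels the 5 parental lines fall to about -7 near the start while TamR lies above 0 there, at 2.93 in the bin of ALB and 1.63 in that of TCF4.

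The longest run that was B in all 5 parental libraries and A in TamR was on chromosome 18. This run, chr18:52700001-55200000 (25 bins), was at -4.60, -4.23, -4.34, -4.26 and -4.80 in T0 to T24 and at 2.16 in TamR, and it joined the isolated island that follows it (chr18:55200001-56800000, with NEDD4L and MALT1) into 1 TamR stretch of 41 bins. It holds 6 protein-coding starts. TCF4, an E-protein transcription factor, was at -7.23, -6.55, -6.47, -6.26 and -6.54 in parental cells and 1.63 in TamR. ONECUT2, a homeobox factor, sat close to the border in parental cells, from -1.86 to -0.08, and was at 3.25 in TamR. SETBP1, on the same chromosome, encodes a SET-binding protein and lies alone in chr18:41700001-42700000, 10 bins within a parental B stretch of about 9000 Kb. That run was at -6.74 at T0, between -6.63 and -6.27 under E2, and at 1.20 in TamR.

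The longest such run of chromosome 4 lay near its end, at chr4:187100001-189300000 (22 bins, 11 starts), with KLKB1 and F11, which encode plasma prekallikrein and coagulation factor XI, and FAT1, a giant cadherin. Its means were -3.60, -3.79, -3.58, -3.39 and -3.92 in T0 to T24 and 2.42 in TamR, and the bin of FAT1 went from -0.46 at T0 to 4.00. TRIML2, a tripartite-motif family gene near its end, was at -4.57 and 1.17. On chromosome 13 the longest run was chr13:34400001-35700000 (13 bins), with NBEA, a membrane-traffic scaffold protein of neurons, at -1.42 to -2.90 in parental cells and 1.24 in TamR. Runs at UGGT2 and HS6ST3 (9 bins, -4.21 at T0 and 0.89 in TamR) and at RAP2A (5 bins, -2.68 and 2.28) followed.

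The longest losses had 1 to 4 genes each. On chromosome 18, chr18:10500001-11700000 (12 bins), inside the second longest island, holds NAPG, PIEZO2, SLC35G4 and GNAL. Its means were 1.55, 1.96, 2.35, 2.78 and 2.19 in T0 to T24 and -3.15 in TamR. PIEZO2, a mechanically gated ion channel, was at 1.90 at T0 and -3.35 in TamR. The bins on both sides stayed in A, so the change formed a B stretch of 1200 Kb within an island.

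On chromosome 4, chr4:138900001-139900000 (10 bins) has 1 protein-coding start, that of SLC7A11. The run was at 1.35, 1.67, 2.15, 1.82 and 1.33 in parental cells and -3.81 in TamR, and the gene's own bin at 2.05, 1.85, 2.02, 1.40, 0.96 and -3.28. PCDH18, a protocadherin gene, lay in a separate island of 6 bins just before it and was at 1.40, 1.33, 0.89, 1.76 and 1.08 in T0 to T24 and -5.60 in TamR. In TamR both genes belonged to 1 B stretch of 101 bins, chr4:129800001-139900000. Within the rest of the same long island INPP4B was at 3.29 at T0, 2.12 at T24 and -0.63 in TamR, a value near the border.

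On chromosome 13 the run chr13:110200001-110900000 (7 bins) has 1 start, that of IRS2, an adaptor of the insulin and insulin-like growth factor receptors. The bin of IRS2 was at 1.85 at T0, 1.81 at T1, 2.43 at T4, 1.68 at T16, 0.47 at T24 and -3.40 in TamR. In parental cells it belonged to an A stretch of 22 to 24 bins, and in TamR to a B stretch of 39 bins on its other side. BCL2, the apoptosis inhibitor and an estrogen-responsive gene of breast cells, started in a 3-bin island, chr18:60700001-61000000, at 2.58, 1.57, 1.76, 1.14 and 1.48 in parental cells and -1.84 in TamR. There it joined the longest B stretch of chromosome 18, that of the SERPINB genes, to give 113 bins.

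Shorter losses included chr4:95300001-96000000, with PDLIM5 and the bone morphogenetic protein receptor gene BMPR1B, at 2.71 at T0 and -0.74 in TamR. Another was chr4:26400001-27300000, with CCKAR, TBC1D19 and the calcium sensor gene STIM2, at 1.44 and -2.88. The run chr18:74100001-74700000, with ZNF516 and ZNF236, was at 2.24 to 2.76 in parental cells and -2.58 in TamR. These 3 runs were chosen as A in all 5 parental libraries and B in TamR, so lower TamR means follow from that choice.

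**Figure D4:**
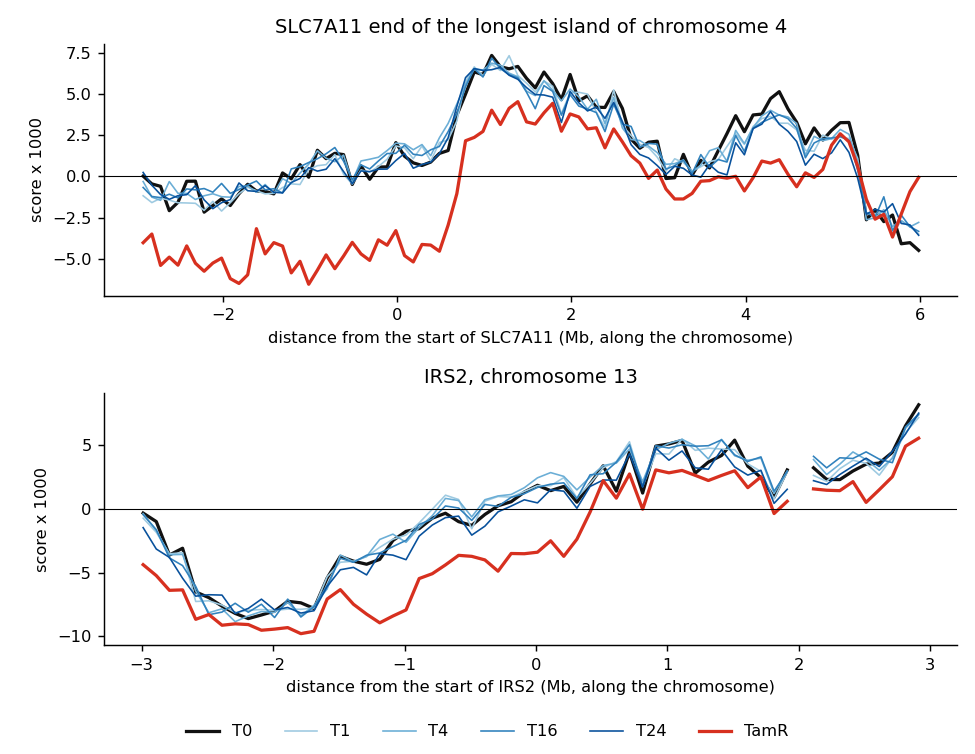
Score times 1000 (vertical axis, 0 is the border) of each 100 Kb bin in the 6 libraries (lines; T0 black, E2 times in blues, TamR red) by distance in Mb from the start of SLC7A11 on chromosome 4 (top) and of IRS2 on chromosome 13 (bottom). At the starts themselves TamR is at -3.28 and -3.40 while the 5 parental lines lie above 0, and a gap in the lines marks bins without a score.

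By the bin of their start, 650 of the 1323 genes (49.1%) were A in all 6 libraries and 418 (31.6%) B in all 6. A further 52 (3.93%, against 2.70% of the genome's protein-coding genes) were A in all 5 parental libraries and B in TamR, and 91 (6.88%, genome 3.79%) the reverse. By bins these changes were nearer the genome, at 4.03% (genome 3.94%) and 6.66% (genome 6.13%). Of the 91 genes, 29 start in the TamR stretch around ALB. The gene shares also have unlike bases, since 58.3% of genes started in an island here and 78.9% on the other 20 chromosomes. The other 112 changed compartment among the parental libraries. Genes within 1 bin share 1 score, so gene counts are not independent, and in the 7 lists below the count of distinct bins is given where it is lower.

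Of a list of 20 growth factor ligands and receptors, which also holds the chemokine gene CXCL8 and the receptor adaptor gene IRS2, 5 were A in all 6 libraries, 4 were B in all 6, 5 went from B to A in TamR, 2 went from A to B and 4 were mixed. The 5 that went to A were EREG, EPGN, BTC, CXCL8 and FGF2 (-0.32 at T0 and 0.51 in TamR, near the border), and 4 of these belong to the stretch around ALB. The 2 that went to B were IRS2 and FGF9 (0.79 and -2.66). Without CXCL8 and IRS2, 4 of 18 went to A and 1 to B. FGFR3, a fibroblast growth factor receptor near the start of chromosome 4, was at 13.04 at T0 and 12.53 in TamR, among the highest scores. KIT and PDGFRA, receptor tyrosine kinases, were in A with 1.31 and 0.43 at T0 and 2.11 and 2.82 in TamR. The median of the list was -0.50 at T0 and 1.53 in TamR, compared with 1.23 and 1.09 over all 1323 genes.

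Of 16 genes of steroid and drug metabolism, 5 were A in all 6 libraries, 6 B in all 6 and 5 mixed. The 5 mixed ones were all UGT2B genes, which glucuronidate steroids and drugs. These genes are similar in sequence, and reads of one may map to another, which was not tested. UGT2B10 was at 1.15, 0.96, 1.94, 0.76 and -0.01 in T0 to T24 and -3.45 in TamR, UGT2B7 at 0.96, 0.09, 0.83, 0.67 and -0.57 and then -4.25, and UGT2B15 at 0.90 at T0 and -2.03. All 7 UGT2B genes of the list were below their parental range in TamR. SULT1E1, the estrogen sulfotransferase, was in B, at -3.19 at T0 and -5.76 in TamR. ABCG2, a drug efflux pump, was in A at 3.26 and 4.02. The median of the list was 0.38 at T0 and -3.34 in TamR. Most of its genes, the UGT2B genes with SULT1B1 and SULT1E1, lie close together on chromosome 4, so the fall is no list-wide shift. The 5 genes in A in all 6 libraries were HSD17B11, HSD17B13, SRD5A3, ABCG2 and TYMS.

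Of 35 genes of the cell cycle, repair and tumour suppression, 18 were A in all 6 libraries, 11 B in all 6, 3 went from A to B in TamR, 1 from B to A and 2 were mixed. BRCA2, the homologous recombination mediator, was at 2.87 at T0 and 2.68 in TamR, and CUL4A and TFDP1, a ubiquitin ligase scaffold and a partner of E2F, were at 10.53 and 10.52 at T0. RB1, the retinoblastoma cell-cycle brake, was in B throughout, at -0.87 at T0, -1.70 at T24 and -0.01 in TamR. The 3 that went to B were BCL2, INPP4B and TET2, a 5-methylcytosine dioxygenase (2.22 at T0 and -0.29 in TamR). FOXO1, a forkhead factor acting under insulin signalling, was the 1 that went to A, from -4.44 to 0.04, on the border.

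Tissue-specific families were mostly B. Of 21 cadherin and protocadherin genes in 19 bins, 19 were B in all 6 libraries, among them CDH2 (neural cadherin; -7.48 at T0 and -8.23 in TamR) and the desmosomal genes DSC1 to DSG4. PCDH18 and FAT1 were the 2 exceptions. Of 18 scored neuronal receptor and adhesion genes, 16 were B in all 6 libraries and the other 2, UNC5C and SLITRK6, were mixed. The GABA receptor genes GABRA4 and GABRB1 shared a bin at -7.96 at T0. GPC6, a glypican, stayed in B but was at -7.52 at T0 and -1.60 in TamR.

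Of 28 genes of tissue-restricted secretory clusters, in 19 bins, 4 were A in all 6 libraries, 11 B in all 6, 9 went from B to A in TamR and 4 from A to B. The 9 were ALB, AFP, AFM, GC and CXCL1, CXCL2, CXCL3, CXCL5 and CXCL6, all in the TamR stretch around ALB. The 4 were alcohol dehydrogenase genes (ADH4, ADH1A, ADH1B and ADH1C), whose lowest parental score was 0.16 and whose TamR scores were -0.41 and -0.86. The milk casein genes CSN1S1, CSN2 and CSN3 remained in B, at -3.19 to -4.88 at T0 and -5.76 to -6.57 in TamR. The fibrinogen genes FGA, FGB and FGG were also B, at -2.47 and -3.56 at T0 and -6.26 and -5.49 in TamR. The genes of liver proteins on chromosome 4 thus had no common direction.

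Of 24 developmental transcription factors, 11 were A in all 6 libraries, 7 B in all 6, 3 went from B to A in TamR (TCF4, SETBP1 and ONECUT2), 1 from A to B and 2 were mixed. The 1 was LEF1, an effector of Wnt signalling, at 2.40, 1.69, 2.41, 1.96 and 0.67 in T0 to T24 and -0.24 in TamR. GATA6 was in A at 5.66 and 6.53. MSX1, a homeobox factor, was in A at 1.53 at T0 and 5.02 in TamR.

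**Figure D5:**
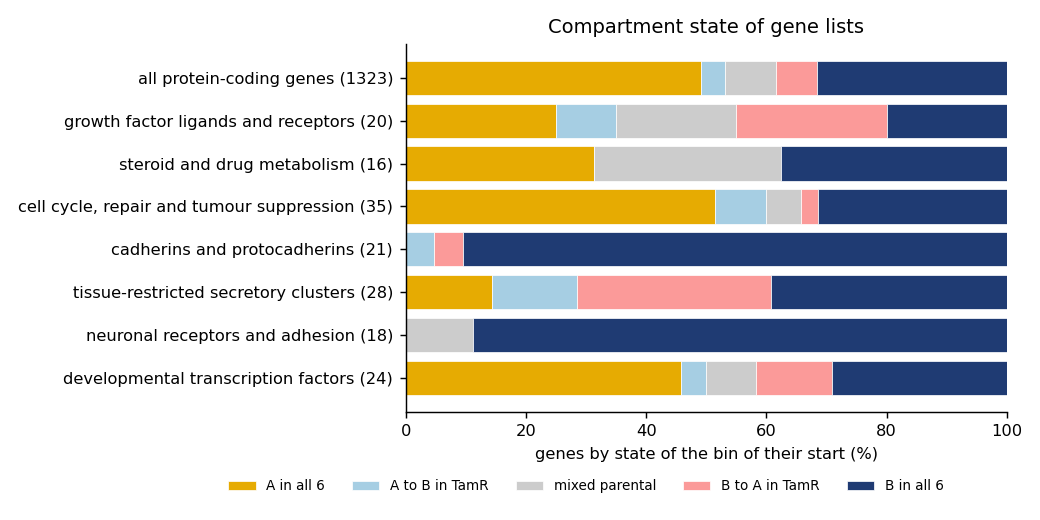
Percent of genes (horizontal axis) by the compartment state of the bin of their start, for all 1323 scored protein-coding genes of the 3 chromosomes and for 7 gene lists (number of scored genes in brackets). Cadherins and neuronal genes are mostly B in all 6 libraries, and the growth factor and secretory lists have the widest share from B to A in TamR (5 of 20 and 9 of 28 genes, against 6.88% of all genes). All of the 9, and all of the 5 but FGF2, lie in the same TamR stretch around ALB. The lists were chosen with earlier results of these data known, so these shares are no test.

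The chromosome ends differed from one another. In the first 10 Mb of chromosome 4, which hold FGFR3 and NSD2, a histone methyltransferase gene, 84.4% of bins were in A at T0 and 92.7% in TamR. In the last 10 Mb of chromosome 4 the share was 33.7% at T0, 31.6% at T24 and 51.0% in TamR. The last 10 Mb of chromosome 18 went the other way, with 28.3% at T0, 28.3% at T24 and 11.1% in TamR, where 17 bins were lost and 0 gained. The last 10 Mb of chromosome 13 had 50.0% at T0 and 39.6% in TamR, and the first 10 Mb of chromosome 18 had 27.0% and 35.0%.

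The longest stretches in B in all 6 libraries were of like length on the 3 chromosomes: chr4:57900001-69200000 (113 bins, 12 protein-coding starts), chr13:53100001-64800000 (117 bins, 17 starts) and chr18:61100001-71800000 (107 bins, 23 starts). They hold EPHA5 and ADGRL3 on chromosome 4, the protocadherin genes PCDH8, PCDH17 and PCDH20 on chromosome 13, and the SERPINB cluster on chromosome 18. The mean of the chromosome 4 stretch was -6.30, -6.43, -6.30, -6.18 and -5.82 in T0 to T24 and -4.47 in TamR, above all parental libraries. That of chromosome 13 was -6.80 at T0 and -6.27 in TamR, and that of chromosome 18 was -6.01 and -6.26.

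Letters of an estrogen response element, GGTCA and TGACC spaced by any 3 bases (its own reverse complement, so both strands are searched at once), occurred 80 times in island bins (0.706 per Mb) and 127 times in the other bins (0.521 per Mb), compared with 0.762 per Mb in all scored bins of the genome. Bins that were A in parental cells and B in TamR held 14 such sites (0.976 per Mb) and those with the opposite change 12 (0.504 per Mb). These counts are small. A match of letters is a description only, and binding of the receptor was not measured in these files.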

How the data were processed

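TCC libraries of T47D cells were analysed, 1 per condition, and the groups were taken from the labels. According to the study's methods the authors aligned reads to hg19, removed low-coverage bins, truncated the highest counts, corrected the interchromosomal contact matrix iteratively and computed its first eigenvector with HiCLib. The deposited score is that eigenvector per 100 Kb bin, scaled within each library (the squares sum to between 0.998 and 0.999). Whether T47D replicates were pooled and how many contacts lie behind a score is not given in the sources used here.

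From these scores the sign gave the compartment. Trends over the 4 E2 times, islands, runs and their state in TamR were counted, and shares of bins were given with 95% Wilson intervals. Bins without a score in any library were left out and ended a run. The steps were tested on simulated tracks with planted islands and changes. Sequence came from GRCh37, whose lengths equalled the bins' for 23 of 23 chromosomes, and genes from GENCODE 44 mapped to it; a gene was placed by its start. Of 1349 protein-coding genes 1323 had a score. Python 3.11.15, numpy 2.4.6, pandas 2.3.3, scipy 1.17.1 and matplotlib 3.10.9 were used.

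The members, regions and 7 gene lists were chosen with earlier results of these data known. Regions named were, per chromosome, the 3 longest islands, up to 4 isolated islands, the 3 longest runs for each TamR change and the 2 longest E2 runs, with at most 6 genes each in genome order; genes of the lists lying in a region were named as well. A few genes and 1 promoter that this rule selects are not reported here. The position of changed bins beside T0 borders, and the island and gene comparisons with the other chromosomes, were added after seeing the data. The alternatives concern the border, weak bins, window size, chromosomes, references and definitions of islands.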

Additional observations from a re-analysis of the deposited data

How the results depend on the processing

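Of 186 recomputed values 128 stayed within the spread or within 1.5 times the count, and 58 moved. No paired analysis was possible because there is a single library for each condition. With the border at each library's median the shares in A were 36.5%, 35.5%, 36.1%, 36.4%, 36.3% and 35.9% in T0 to TamR, so the lower share at T24 was not seen there. With that border, changed bins were 3.75% at T4 and 16.1% in TamR (A to B 8.36%, B to A 7.72%, so that losses exceeded gains), and the trends A to A, B to B and A to B had 32.7%, 59.8% and 1.12%. Leaving out weak bins gave 26.8% in A in each parental library and 30.0% in TamR. It left 0% changed at each E2 time, 0% in trends A to B, B to A and miscellaneous and 73.2% in B to B. In TamR it left 6.06% changed (A to B 1.44%, B to A 4.62%), with 5.37% of A bins lost and 6.32% of B bins gained. In 500 Kb windows 2.65%, 2.51% and 2.37% changed at T1, T4 and T16, B to A and miscellaneous trends had 0.279% and 5.02%, 5.86% went from A to B in TamR and 18.7% of A bins were lost. Without chromosome 4 the values were 2.76% changed at T16, 4.23% at T24, 0.176% B to A, 5.17% miscellaneous, 5.81% A to B in TamR and 18.3% of A bins lost; without chromosome 13 or 18 all 23 values stayed. Without T24 the trends A to A, B to A and miscellaneous had 29.2%, 0.895% and 3.58%. Islands without A in TamR numbered 34 when taken from T0 alone and 10 when A in all 5 libraries was required. Islands of at least 3 bins numbered 58, of which 23 stayed wholly in A and 7 had no A, with 68 TamR runs and 6 new ones. Added after seeing the data, T24 as the reference gave 4.92% A to B, 9.09% B to A, 17.1% of A bins lost and 12.8% of B bins gained; gains exceeded losses with T0, T24 or the parental majority as the reference. Leaving T0 or T24 out of the islands, also added after seeing the data, moved none of 5 counts. The cause of these shifts was not tested, beyond the removal of bins near the border by the weak-bin filter. Depth is unknown.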
